A study of Homo sapiens with 24 samples.

Results

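The CCAAT/enhancer-binding protein (C/EBP) genes CEBPA, CEBPB, CEBPD, CEBPG and CEBPZ were followed across 8 groups of cells of HCT116, an established line from a human colon cancer. These 5 genes were taken by name out of 18239 measured genes, and each was read by the probe set with the highest mean signal over all 24 arrays. The groups, of 3 arrays each, were ESR2 cells in hypoxia with estradiol, ESR2 cells in hypoxia without it, ESR2 cells in normoxia with estradiol, ESR2 cells in normoxia without it, and parental cells in the same 4 conditions. Parental cells are labelled WT and none. ESR2 cells overexpress full-length estrogen receptor beta with an N-terminal HaloTag from a lentiviral vector that also carries GFP and puromycin resistance. They were a puromycin-selected pool, infected repeatedly with virus made in HEK293T packaging cells until most cells were GFP-positive, and not a clone; the promoter that drives the receptor is not described here. No cells with an empty vector are among these samples, so that the receptor and the transduction cannot be told apart. Estradiol (17β-estradiol) was given at 10 nM in phenol-red-free DMEM with charcoal-stripped serum. The medium of the untreated groups is not given in the sources used here, so that estradiol and its medium cannot be told apart. For hypoxia the incubator chamber was filled with a nitrogen and CO2 mixture, and the length of exposure is not given in the sources used here. The question behind the series is how this receptor bears on the hypoxia response of such cells.

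C/EBP proteins bind DNA as dimers through a basic leucine zipper (bZIP) and can pair with each other and with other bZIP proteins. CEBPA is known for halting proliferation during the differentiation of fat, liver and myeloid cells, and CEBPB and CEBPD for acute-phase and inflammatory gene control. CEBPG lacks an activation domain and works mainly as a dimer partner, among others of ATF4 in the response to amino acid shortage. CEBPZ carries the family's name but is no bZIP protein: it is the human counterpart of yeast Noc1, a nucleolar protein of large ribosomal subunit assembly. CEBPA, CEBPB and CEBPD are genes without introns whose activity also depends on protein isoforms and phosphorylation, which arrays of RNA do not measure.

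The values are log2 signals, so that a difference of 1 is a 2-fold change. ESR2 itself read 3.92 to 4.89 on the arrays of ESR2 cells and 3.28 to 3.56 on those of parental cells, with no overlap. Its group means in ESR2 cells were 4.07 and 3.93 in hypoxia without and with estradiol, against 4.51 and 4.41 in normoxia. In hypoxic ESR2 cells with estradiol it read 3.92 to 3.95, below every array median (4.07 to 4.13). Of 9 measured reporters of the hypoxia-inducible factors, all rose in hypoxia in 3 of the 4 settings and 8 rose in ESR2 cells with estradiol. Of 10 markers of colon epithelium, 6 lay above the array median in all groups, KRT19 and EPCAM among them, while CDX1, VIL1, LGALS4 and CDH17 did not. Of the markers of fibroblasts, leukocytes and embryonic kidney cells 0 of 16 did, and of 6 markers of hepatocytes and adipocytes 1 did (APOA1). Arrays of one group correlated at 0.9956 or more except in untreated normoxic parental cells, where the lowest correlation was 0.988 and replicate 2 stood apart. The 3′ minus 5′ index, taken over 3 control transcripts (thr, dap and beta-actin) as the log2 signal at the 3′ end less that at the 5′ end, rises as labelled RNA gets shorter and was 4.22 on that array. It was 3.69 ± 0.29 in hypoxic ESR2 cells with estradiol and 2.08 ± 0.12 in hypoxic ESR2 cells without it (SD, n = 3 each). A model of group means takes the slope on the index from its spread within groups. That spread was largest in untreated normoxic parental cells (SD 0.94) and 0.35 or less in every other group. Values with the index in the model therefore rest largely on replicate 2 there. Whether they correct for RNA length between groups was not tested. For results of the 5 C/EBP genes that rest on these arrays, values without replicate 2 or with the index in the model are given. They stand here or in the closing sections where they change a call or a sign or move the value widely. For the other genes no such values are given, and whether their calls hold without these arrays or with the index was not tested. Whether replicates were separate cultures is not in the labels; all p-values therefore reflect spread among these samples alone, and that spread may be technical. Precision is limited by having 3 arrays in each group.

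CEBPA and CEBPG neighbour each other on chromosome 19, with 71.175 kb between them (RefSeq, GRCh38.p14). CEBPA lies at chr19:33299934-33302534, CEBPG at chr19:33373709-33382686, CEBPB at chr20:50190583-50192690 and CEBPZ at chr2:37201612-37231596. Promoter windows from 250 bases before to 50 after a transcript start were taken from RefSeq for 4 of the 5 genes; the CEBPD promoter was not used here. Of these, 2 windows are shown because CEBPA had the largest hypoxia change of the 5 genes and because a CEBPG window holds a composite site of its own family. CEBPA stands at chr19:33302485-33302784 on the minus strand, and the second CEBPG window at chr19:33373863-33374162 on the plus strand. Capitals mark motif matches on either strand.
CEBPA promoter: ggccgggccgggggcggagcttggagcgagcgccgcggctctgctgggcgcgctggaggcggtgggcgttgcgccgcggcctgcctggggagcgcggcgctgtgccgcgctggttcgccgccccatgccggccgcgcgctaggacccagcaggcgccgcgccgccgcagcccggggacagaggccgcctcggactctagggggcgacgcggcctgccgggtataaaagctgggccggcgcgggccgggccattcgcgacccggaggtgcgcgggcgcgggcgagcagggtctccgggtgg
CEBPG second promoter: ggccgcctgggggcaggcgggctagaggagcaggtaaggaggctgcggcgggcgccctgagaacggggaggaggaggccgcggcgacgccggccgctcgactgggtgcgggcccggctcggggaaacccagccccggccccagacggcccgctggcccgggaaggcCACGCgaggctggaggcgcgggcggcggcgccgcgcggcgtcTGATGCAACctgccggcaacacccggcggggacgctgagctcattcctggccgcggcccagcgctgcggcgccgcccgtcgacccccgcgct
The motifs searched were 6, read on both strands: ACGTG and GCGTG, the cores of hypoxia response elements, CCAAT, the C/EBP site TTGCNNAA, the palindromic estrogen response element and the C/EBP-ATF composite site TGATGNAAN. In the CEBPG window GCGTG matched on the minus strand at position 167 and the composite site matched on the plus strand at position 209, as TGATGCAAC. Of 35116 RefSeq promoter windows of this length 36.5% hold GCGTG and 3.61% hold the composite site. The CEBPA window matched none of these motifs. It is 80.7% G and C, against a median of 58.7% over all windows, and shares 214 bases with the window of the divergent gene CEBPA-DT. ACGTG, TTGCNNAA and the estrogen response element, which 21.4%, 10.5% and 0.057% of windows hold, matched in no window of CEBPA, CEBPB, CEBPG or CEBPZ. CCAAT, held by 34.6% of windows, matched 2 times in the first CEBPG window and in both overlapping CEBPB windows, and GCGTG matched 3 times in the CEBPZ window and 1 and 2 times in the CEBPB windows. The CCAAT match is the same site in both CEBPB windows, and 1 GCGTG site is likewise counted in both. A match describes the letters only.

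The 5 genes differed in how far their group means spread. CEBPA spanned 2.59 on the log2 scale between its lowest and highest group mean, CEBPG 1.40, CEBPD 1.38, CEBPZ 0.75 and CEBPB 0.54. CEBPA and CEBPD had the same pair of groups at the bottom, both of hypoxic parental cells, and the same group at the top, hypoxic ESR2 cells with estradiol. CEBPG was also highest there, while CEBPB was highest in untreated normoxic parental cells and CEBPZ in normoxic ESR2 cells with estradiol. Over the 8 group means CEBPA and CEBPD correlated at a Pearson r of 0.94 and CEBPA and CEBPB at 0.68, while CEBPG and CEBPB gave 0.03; these 8 points share arrays and normalization and are a description only.

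**Figure D1:**
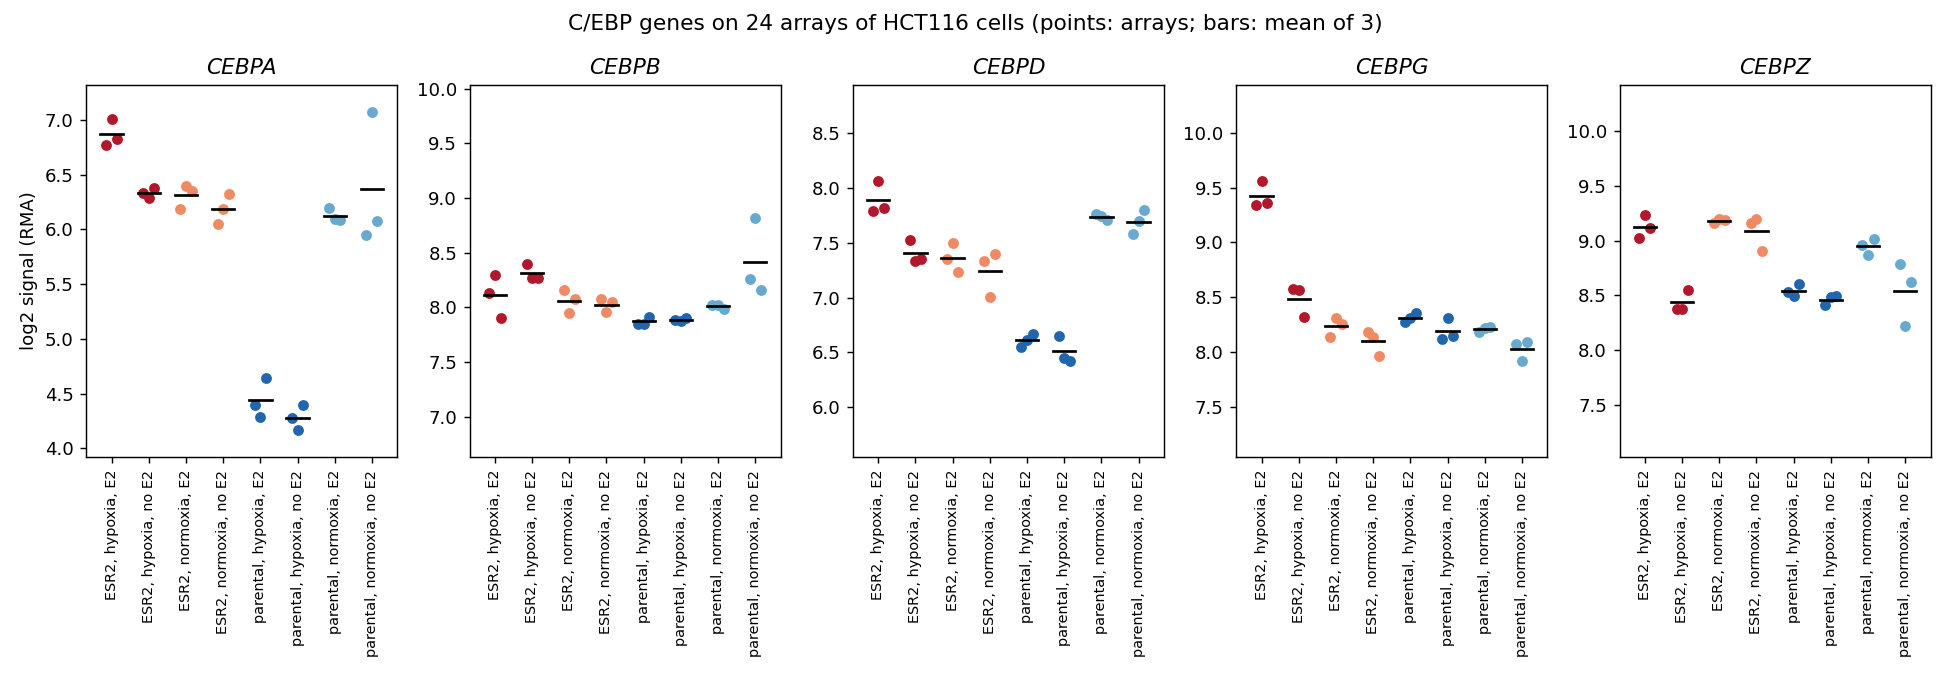
Log2 RMA signal (y axis, the same span of 3.4 units in each panel) of each C/EBP gene on each of the 24 arrays, by group (x axis; E2, estradiol); bars are means of 3 arrays. The arrays of hypoxic parental cells lie at 4.17 to 4.64 for CEBPA and 6.42 to 6.67 for CEBPD, below all other arrays, and CEBPG is highest in hypoxic ESR2 cells with estradiol.

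CEBPA, the differentiation factor, fell in hypoxia in parental cells and not in ESR2 cells. Without estradiol it read 4.27, 4.17 and 4.40 in hypoxic parental cells, against 5.95, 7.08 and 6.07 in normoxic ones. With estradiol it read 4.39, 4.29 and 4.64 in hypoxic parental cells, against 6.20, 6.10 and 6.08 in normoxic ones. In both settings every hypoxic array lay below every normoxic one by more than 1 log2 unit. The change was -2.09 (SE 0.18, adjusted p = 9.08e-10), a 4.25-fold fall, without estradiol, and -1.68 (SE 0.18, adjusted p = 3.41e-08) with it, by limma with Benjamini-Hochberg adjustment over all genes. Without estradiol only 22 of the other genes fell by more. Without replicate 2 of normoxic parental cells the first value was -1.73 (adjusted p = 2.75e-12). CEBPA has 1 probe set, so that no other set could be compared. In these bulk samples fewer cells that express a gene and less of its RNA per cell cannot be told apart.

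In ESR2 cells without estradiol CEBPA read 6.34, 6.28 and 6.38 in hypoxia, against 6.05, 6.19 and 6.32 in normoxia. These groups overlap, and the change of 0.14 (95% interval -0.22 to 0.51, adjusted p = 0.569) did not pass the test. With the 3′ minus 5′ index in the model it was 0.45 (adjusted p = 0.00531) and passed. The difference between the hypoxia changes of ESR2 and parental cells, tested as an interaction, was 2.23 (SE 0.25, adjusted p = 2.76e-07) without estradiol, and 8 genes had a higher one. With estradiol CEBPA read 6.77, 7.01 and 6.83 in hypoxic ESR2 cells, against 6.19, 6.40 and 6.35 in normoxic ones. It rose by 0.56 (SE 0.18, adjusted p = 0.0106), and the interaction was 2.24 (SE 0.25, adjusted p = 1.14e-07). The rise was 0.03 (adjusted p = 0.891) with that index in the model, and the interaction 1.71 (adjusted p = 5.99e-08).

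CEBPD (chr8:47736913-47738164), an early inducible factor of the acute phase, had a like pattern with smaller log2 changes. It read 6.65, 6.45 and 6.42 in hypoxic parental cells without estradiol, against 7.58, 7.70 and 7.80 in normoxic ones. With estradiol the hypoxic parental arrays read 6.55, 6.61 and 6.67, against 7.77, 7.75 and 7.71 in normoxia. The groups stood clear of each other, and CEBPD fell by 1.19 (SE 0.10, adjusted p = 8.78e-10), or 2.27-fold, and by 1.13 (SE 0.10, adjusted p = 2.24e-09). In ESR2 cells without estradiol it read 7.53, 7.33 and 7.35 in hypoxia, against 7.33, 7.00 and 7.40 in normoxia, which overlap (0.16, 95% interval -0.05 to 0.36, adjusted p = 0.238). In ESR2 cells with estradiol it rose by 0.53 (SE 0.10, adjusted p = 9.38e-05), with 7.79, 8.06 and 7.82 in hypoxia against 7.35, 7.50 and 7.23 in normoxia. The interaction was 1.34 (SE 0.14, adjusted p = 1.14e-07) without estradiol and 1.66 (SE 0.14, adjusted p = 1.71e-09) with it. CEBPD has 5 probe sets: the 3 brightest sets gave -1.19, -1.24 and -1.03 in parental hypoxia without estradiol, while the 2 dimmest, with mean signals of 4.97 and 3.79, gave -0.22 (adjusted p = 0.333) and -0.40 (adjusted p = 0.0564). On these 2 the interaction without estradiol was 0.02 (adjusted p = 0.963) and 0.16 (adjusted p = 0.668).

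CEBPB, the factor of the acute phase and of early fat cell differentiation, had the smallest span of group means. In hypoxic parental cells without estradiol it read 7.88, 7.87 and 7.90, against 8.26, 8.81 and 8.16 in normoxic ones, where replicate 2 was highest. It fell by 0.52 (SE 0.12, adjusted p = 0.000649), and by 0.32 (adjusted p = 0.00407) without that replicate. With estradiol it read 7.85, 7.85 and 7.91 in hypoxic parental cells, against 8.02, 8.02 and 7.99 in normoxic ones, a difference of -0.14 that did not pass the test (adjusted p = 0.425). In ESR2 cells without estradiol hypoxic arrays read 8.40, 8.27 and 8.27 and normoxic ones 8.07, 7.96 and 8.05; the groups did not overlap, but the change of 0.29 (adjusted p = 0.0604) missed the threshold. The interaction without estradiol was 0.81 (SE 0.16, adjusted p = 0.000471), or 0.61 (adjusted p = 0.000257) without replicate 2 of normoxic parental cells. With estradiol CEBPB differed in ESR2 cells by 0.05 (95% interval -0.19 to 0.29, adjusted p = 0.733), with 8.13, 8.30 and 7.90 in hypoxia against 8.16, 7.94 and 8.07 in normoxia.

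Counted together, 3 of the 5 genes fell and 0 rose in hypoxic parental cells without estradiol, where 21.2% of all genes fell and 16.4% rose. With estradiol again 3 fell and 0 rose, where 18.7% of all genes fell and 16.1% rose, but CEBPZ took the place of CEBPB. In hypoxic ESR2 cells without estradiol 1 rose and 1 fell, where 14.4% of all genes rose and 18.2% fell. With estradiol 3 rose and 0 fell, where 29.6% of all genes rose and 22.6% fell. The interaction of hypoxia and ESR2 was positive for 3 and negative for 1 without estradiol, where 16.4% and 14.3% of all genes were, and positive for 3 and negative for 0 with it, where 20.6% and 18.1% were. The median change of the 5 genes in parental cells without estradiol was -0.52, against 0.00 over all genes, and 0.53 in ESR2 cells with estradiol, against 0.08 over all genes. The comparisons within one cell type share no arrays between estradiol settings.

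**Figure D2:**
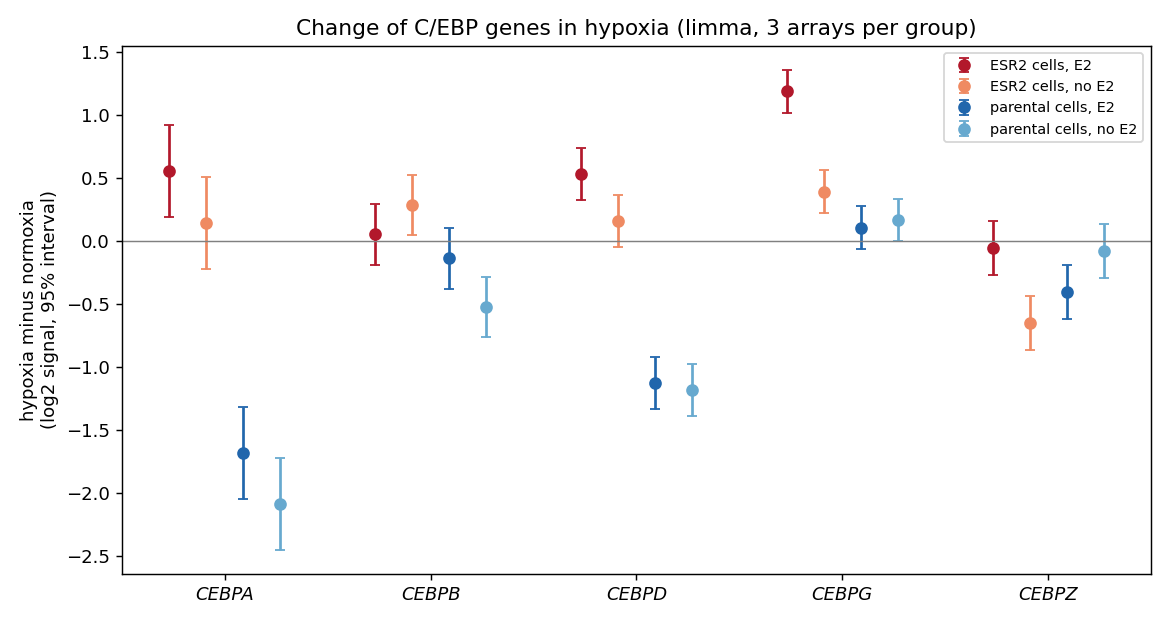
Hypoxia minus normoxia in log2 signal (y axis) for each C/EBP gene (x axis) in ESR2 and parental cells with and without estradiol (E2), with 95% intervals from limma. CEBPA and CEBPD lie below 0 in parental cells and at or above 0 in ESR2 cells, CEBPG is highest at 1.19 in ESR2 cells with estradiol, and CEBPZ is lowest at -0.65 in ESR2 cells without estradiol.

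CEBPG, the partner of ATF4, rose most in hypoxic ESR2 cells with estradiol. There its brightest probe set read 9.34, 9.56 and 9.36, against 8.14, 8.31 and 8.25 in normoxic ESR2 cells with estradiol. In ESR2 cells without estradiol it read 8.57, 8.56 and 8.32 in hypoxia, against 8.18, 8.14 and 7.96 in normoxia. The changes were 1.19 (SE 0.08, adjusted p = 2.18e-11) and 0.39 (SE 0.08, adjusted p = 0.000641). In parental cells the hypoxic arrays lay at 8.12 to 8.36 and the normoxic ones at 7.92 to 8.23, and the CEBPG differences were 0.17 (95% interval 0.00 to 0.34, adjusted p = 0.123) without and 0.10 (95% interval -0.07 to 0.28, adjusted p = 0.398) with estradiol. The interaction was 0.22 (adjusted p = 0.154) without estradiol and 1.08 (SE 0.12, adjusted p = 6.42e-08) with it. With the 3′ minus 5′ index in the model the rise in ESR2 cells with estradiol was 1.22 (adjusted p = 2.04e-09).

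The 2 CEBPG probe sets disagreed. The dimmer one, with a mean signal of 7.35, gave -0.53 (adjusted p = 3.99e-07) for hypoxia in parental cells without estradiol and -0.38 (adjusted p = 7.14e-05) in ESR2 cells without estradiol, the opposite sign of the brighter one. In parental cells with estradiol it gave -0.43 (adjusted p = 8.68e-06) and in ESR2 cells with estradiol 0.09 (adjusted p = 0.279). It averaged 7.37 ± 0.07 in hypoxic ESR2 cells with estradiol and 6.88 ± 0.08 in those without (SD, n = 3 each). Between these groups and in the interaction with estradiol both probe sets moved one way, at 0.49 and 0.51 on the dimmer one. Which transcripts each probe set reads is not given in the sources used here. The direction of CEBPG in parental hypoxia and in untreated ESR2 hypoxia therefore holds for the brighter probe set only. The same is true of the size and the call of its hypoxic rise in ESR2 cells with estradiol.

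**Figure D3:**
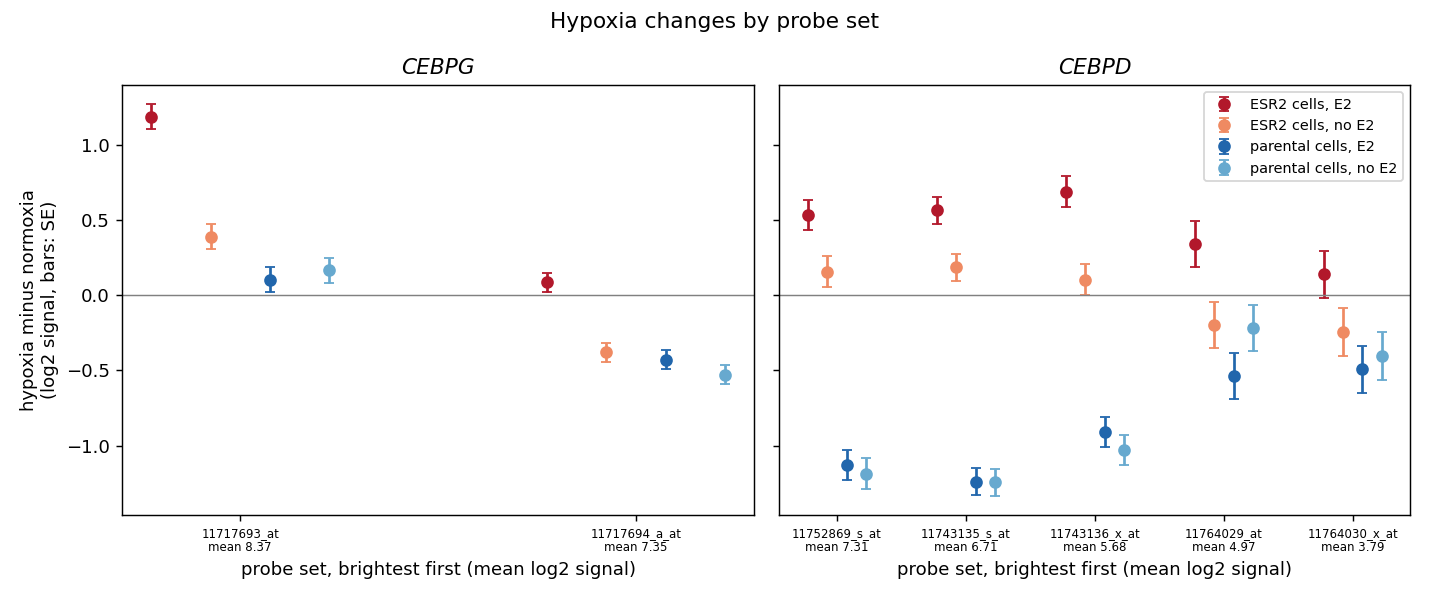
Hypoxia minus normoxia in log2 signal (y axis; bars, SE) for each probe set of CEBPG (left) and CEBPD (right), brightest first, with its mean signal under its name. The CEBPG sets have opposite signs in parental cells and in ESR2 cells without estradiol (E2), while the 3 brighter CEBPD sets agree and the 2 dimmer ones lie nearer 0.

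CEBPZ, the ribosome assembly factor, fell in hypoxic ESR2 cells without estradiol. It read 8.38, 8.38 and 8.55 there, against 9.16, 9.20 and 8.91 in normoxic ESR2 cells, a change of -0.65 (SE 0.10, adjusted p = 2.74e-05). In parental cells with estradiol it read 8.53, 8.49 and 8.61 in hypoxia, against 8.96, 8.87 and 9.02 in normoxia, and fell by 0.41 (SE 0.10, adjusted p = 0.00279). In the other settings it did not pass the test. Untreated hypoxic parental arrays read 8.41, 8.48 and 8.49 and normoxic ones 8.79, 8.22 and 8.62, a difference of -0.08 (adjusted p = 0.624). The low normoxic value is that of replicate 2, and without it the change was -0.24 (adjusted p = 0.028). In ESR2 cells with estradiol hypoxic arrays read 9.03, 9.23 and 9.12 and normoxic ones 9.16, 9.20 and 9.19 (-0.06, adjusted p = 0.659). The interaction without estradiol was -0.57 (SE 0.15, adjusted p = 0.00395), or -0.41 (adjusted p = 0.00793) without replicate 2 of normoxic parental cells, opposite in sign to that of CEBPA, CEBPB and CEBPD.

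Most of the ribosome assembly genes listed beside CEBPZ fell in hypoxia in every setting. Of 18 measured, 17 fell and 0 rose in hypoxic parental cells without estradiol, with a median of -0.76, and 12 fell and 0 rose in ESR2 cells without estradiol, with a median of -0.47. Over all genes 21.2% and 18.2% fell in these comparisons and 16.4% and 14.4% rose. With estradiol 16 fell in parental cells (median -0.84) and 14 in ESR2 cells (median -0.67), and 0 rose, where 18.7% and 22.6% of all genes fell and 16.1% and 29.6% rose. NOP2, an rRNA methyltransferase, changed by -1.96 (adjusted p = 5.08e-15) and FTSJ3, another, by -1.95 (adjusted p = 9.08e-16) in untreated parental cells. NOP2 read 5.94 there in hypoxia and 7.90 in normoxia, as group means. In ESR2 cells without estradiol RRP15 changed by -1.13, PPAN by -0.78 and BOP1 by -0.74. NOC2L, the human counterpart of the yeast protein that pairs with Noc1, fell by 0.59 in parental and 0.52 in ESR2 cells without estradiol. The interaction without estradiol was positive for 9, negative for 1 and not called for 8, where 16.4% of all genes were positive and 14.3% negative. It was 1.53 for NOP2, and CEBPZ, at -0.57, had the sign of the 1 exception, NOC3L (-0.64). The window of CEBPZ shares 161 bases with that of the divergent gene NDUFAF7, an assembly factor of respiratory complex I, chosen here by position. NDUFAF7 rose by 0.39 (adjusted p = 0.00061) in hypoxic parental cells without estradiol and differed by -0.17 (adjusted p = 0.137) in ESR2 cells without estradiol, with an interaction of -0.56 (adjusted p = 0.000929).

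**Figure D4:**
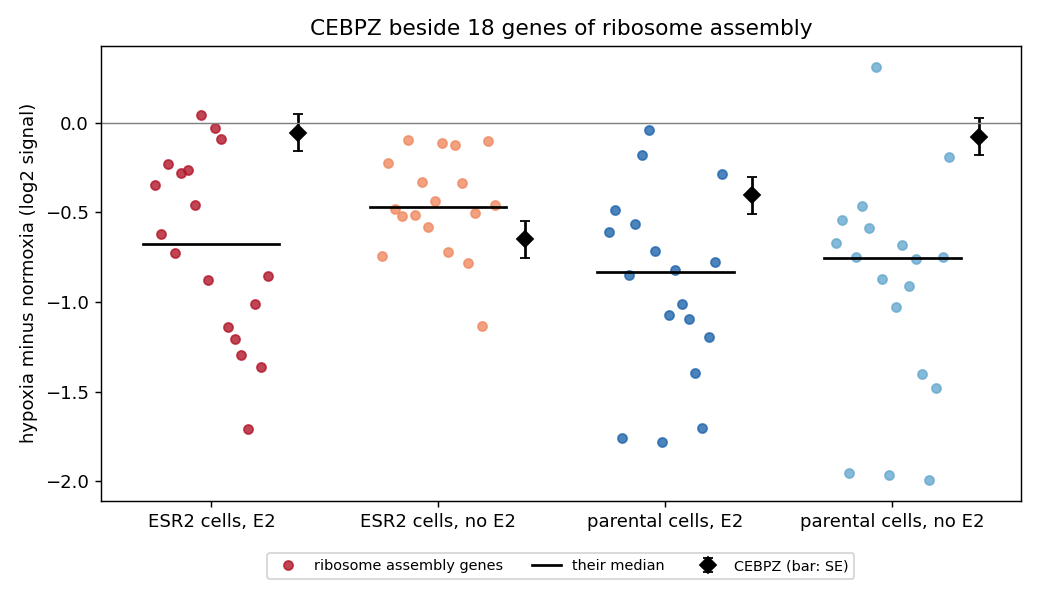
Hypoxia minus normoxia in log2 signal (y axis) of 18 ribosome assembly genes (points; line, median) and of CEBPZ (diamond; bar, SE) in each setting of cells and estradiol (E2; x axis). The medians lie between -0.84 and -0.47, and CEBPZ lies below the median in ESR2 cells without estradiol and above it in the other 3 settings.

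ESR2 cells and parental cells were then compared within each oxygen level. In hypoxia without estradiol 4 of the 5 genes were higher in ESR2 cells and 0 lower, where 20.4% of all genes were higher and 20.0% lower. CEBPA was 2.05 higher (SE 0.18, adjusted p = 1.84e-09), CEBPD 0.90 (SE 0.10, adjusted p = 1.15e-07), CEBPB 0.43 (adjusted p = 0.00481) and CEBPG 0.29 (adjusted p = 0.00602); the dimmer CEBPG probe set gave -0.36 (adjusted p = 8.1e-05), and the 2 dimmest CEBPD sets gave -0.18 (adjusted p = 0.393) and 0.07 (adjusted p = 0.776). In hypoxia with estradiol 4 were higher and 0 lower, where 27.8% and 19.8% of all genes were: CEBPA by 2.43, CEBPD by 1.28, CEBPG by 1.11 and CEBPZ by 0.58. With the 3′ minus 5′ index in the model these were 1.82, 1.17, 1.14 and 0.81, and the same 4 passed. The dimmer CEBPG probe set gave 0.11 (adjusted p = 0.186) here, and the 2 dimmest CEBPD sets gave 0.31 (adjusted p = 0.113) and 0.27 (adjusted p = 0.176). In normoxia without estradiol CEBPZ was 0.55 higher (adjusted p = 0.000563), while CEBPD was 0.45 lower (adjusted p = 0.00257) and CEBPB 0.39 lower (adjusted p = 0.021). That is 1 higher and 2 lower, where 9.76% and 8.86% of all genes were. Without replicate 2 of normoxic parental cells the CEBPB difference was -0.18 (adjusted p = 0.176) and did not pass, and with the index it was -0.26 (adjusted p = 0.0652). In normoxia with estradiol only CEBPD passed on the main probe sets, at -0.38 (adjusted p = 0.0108). Of all genes 5.22% were lower and 8.45% higher there. Without 1 array at a time the adjusted p of CEBPD reached 0.0768. The dimmest CEBPD set gave -0.09 (adjusted p = 0.784) in untreated normoxia, and the second dimmest averaged 4.89 in ESR2 and 5.09 in parental cells there. The dimmer CEBPG probe set gave -0.51 (adjusted p = 7.14e-06) in untreated normoxia and -0.41 (adjusted p = 0.000118) in normoxia with estradiol. CEBPA thus differed between the cells in hypoxia, while in normoxia its differences of -0.18 and 0.19 did not pass the test. The first turned to 0.18 (adjusted p = 0.283) without replicate 2 of normoxic parental cells and was 0.06 with the index in the model. The hypoxia and cell comparisons share arrays and are not independent.

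Hypoxic ESR2 cells given estradiol read higher for 4 of the 5 C/EBP genes than those without it. There 4 rose and 0 fell, where 35.4% of all genes rose and 21.6% fell and the median of all genes was 0.12. CEBPG rose by 0.94 (SE 0.08, adjusted p = 1.78e-09), with 9.34, 9.56 and 9.36 in estradiol against 8.57, 8.56 and 8.32 without. CEBPZ rose by 0.69 (SE 0.10, adjusted p = 6.28e-06), with 9.03, 9.23 and 9.12 against 8.38, 8.38 and 8.55. CEBPA rose by 0.54 (adjusted p = 0.0128) and CEBPD by 0.49 (adjusted p = 0.000272), while the CEBPB difference was -0.20 (adjusted p = 0.138). The 3′ minus 5′ index moves with this comparison, as given above. With it in the model CEBPG changed by 0.98 (adjusted p = 3.09e-06) and CEBPZ by 1.00 (adjusted p = 8.84e-06). The values were 0.33 for CEBPD (adjusted p = 0.102), -0.29 for CEBPA (adjusted p = 0.204) and -0.65 for CEBPB (adjusted p = 0.000814). The slope behind these values rests largely on replicate 2 of untreated normoxic parental cells, an array of neither group compared here. They are therefore no tested correction for RNA length. Without replicate 2 of hypoxic ESR2 cells with estradiol the CEBPA rise was 0.47 (adjusted p = 0.052), and CEBPB fell by 0.30 (adjusted p = 0.049).

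In the other 3 estradiol comparisons limma called 0 of the 5 genes. Over all genes it called 0 in normoxic ESR2 cells, 2 in normoxic parental cells (both lower, 0.0110%) and 3 in hypoxic parental cells (0.00548% higher and 0.0110% lower), where 981, 2524 and 846 had an unadjusted p below 0.05. The largest differences among the C/EBP genes were in normoxic parental cells, at 0.41 for CEBPZ (adjusted p = 0.217) and -0.40 for CEBPB (adjusted p = 0.227), estradiol minus none. Without replicate 2 of untreated normoxic parental cells these were 0.24 and -0.20. The effect of estradiol differed between ESR2 and parental cells, averaged over oxygen, for CEBPG at 0.38 (SE 0.08, adjusted p = 0.00119), which is 1 of the 5 genes, where 11.6% of all genes had a positive and 12.9% a negative difference. In ESR2 cells it differed between hypoxia and normoxia for 3, where 25.4% were positive and 18.4% negative: CEBPG at 0.80 (adjusted p = 8.55e-06), CEBPZ at 0.59 (adjusted p = 0.00237) and CEBPD at 0.37 (adjusted p = 0.0359). The value of CEBPD did not pass without any one of 7 of the 12 arrays of ESR2 cells, with adjusted p between 0.0576 and 0.108. With the 3′ minus 5′ index in the model it was 0.22 (adjusted p = 0.39), while CEBPG was 0.85, CEBPZ 0.90 and CEBPB passed at -0.69 (adjusted p = 0.00282).

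Related genes outside the 5 were CEBPE and DDIT3. CEBPE, a factor of late neutrophil maturation, read 2.22 to 2.75 on all arrays, below every array median (4.07 to 4.13), and passed no test. DDIT3, known as CHOP, pairs with C/EBP proteins and keeps them from classic sites. It rose in hypoxia in all 4 settings, by 0.89 (adjusted p = 1.29e-06) in parental and 0.61 (adjusted p = 0.000303) in ESR2 cells without estradiol and by 0.52 and 1.21 with it. DDIT3 was 1.23 lower in hypoxic ESR2 than hypoxic parental cells without estradiol (adjusted p = 1.23e-08), the opposite sign of CEBPA and CEBPD. It was also lower in untreated normoxia, with group means of 4.51 in ESR2 and 5.46 in parental cells. With estradiol its means in ESR2 and parental cells were 4.86 and 5.40 in normoxia and 6.07 and 5.93 in hypoxia. The bZIP partners, which decide what a C/EBP dimer binds, went both ways. In untreated parental cells 8 of 19 rose and 5 fell in hypoxia, where 16.4% of all genes rose and 21.2% fell, and in untreated ESR2 cells 7 rose and 3 fell, where 14.4% rose and 18.2% fell. NFIL3, a bZIP repressor, rose by 2.03 (adjusted p = 1.56e-15) in parental and 0.96 (adjusted p = 2.58e-09) in ESR2 cells, and ATF5 fell by 1.32 and 0.77. JUN rose by 1.71 in ESR2 and 1.31 in parental cells, and FOS by 1.68 and 0.70. In ESR2 cells with estradiol 9 rose and 5 fell, where 29.6% of all genes rose and 22.6% fell, and ATF3 rose by 1.89 (adjusted p = 3.29e-14).

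Genes that act on C/EBP proteins were counted in 4 lists. Over all genes 16.4% rose and 21.2% fell in untreated parental hypoxia, 14.4% and 18.2% in untreated ESR2 hypoxia, and 29.6% and 22.6% in ESR2 hypoxia with estradiol. Tribbles proteins TRIB1 and TRIB2 guide the ligase COP1 to C/EBP alpha for degradation, and FBXW7 is a ubiquitin ligase subunit. In untreated parental hypoxia 2 of these 5 rose (TRIB1 by 1.04, adjusted p = 1.26e-08, and TRIB2 by 0.81, adjusted p = 5.03e-07) and 3 fell, TRIB3 by 0.93 the most. In untreated ESR2 hypoxia TRIB2 rose by 0.94, TRIB1 by 0.89 and FBXW7 fell by 0.23. In ESR2 cells with estradiol all 5 fell, FBXW7 by 1.22 (adjusted p = 1.16e-11) and TRIB1 by 0.48. Of 12 cofactors, 3 rose and 4 fell in untreated parental hypoxia and 6 rose and 0 fell in untreated ESR2 hypoxia. EP300, an acetyltransferase recruited by C/EBP proteins, fell by 0.87 (adjusted p = 3.94e-05) in parental and rose by 0.78 (adjusted p = 0.000249) in ESR2 cells, and its interaction was 1.65 (adjusted p = 2e-06). Of 16 measured upstream kinases and inducers, 3 rose and 5 fell in untreated parental hypoxia and 4 rose and 1 fell in ESR2 cells. RELA, the NF-kB subunit, fell by 0.83 (adjusted p = 5.06e-10) in parental cells and did not pass the test in ESR2 cells (adjusted p = 0.992), with an interaction of 0.83 (adjusted p = 4.39e-07). SOCS3, the STAT3 feedback inhibitor, had an interaction of 0.91 (adjusted p = 0.00298). Of 8 genes of the translation of C/EBP isoforms, 2 rose and 2 fell in parental and 0 rose and 1 fell in ESR2 cells without estradiol, and 1 rose and 6 fell in ESR2 cells with estradiol, EIF4E by 1.05 and CELF1 by 0.90.

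Known C/EBP targets were counted in 2 lists, with no listed gene left out for low signal. Some read dim: group means ran from 3.13 to 3.48 for ALB and from 2.73 to 2.97 for FABP4. Both lie below every array median (4.07 to 4.13), so the counts are not those of expressed targets alone. Of 20 acute-phase and inflammatory targets, 3 rose and 1 fell in untreated parental hypoxia and 1 rose and 3 fell in untreated ESR2 hypoxia. Over all genes 16.4% rose and 21.2% fell in the parental and 14.4% rose and 18.2% fell in the ESR2 comparison. The list's median changes were -0.01 in both, against 0.00 and -0.06 over all genes. CXCL8, a neutrophil chemokine, rose by 1.00 (adjusted p = 2.59e-08) in parental cells, with an interaction of -1.17 (adjusted p = 1.36e-06). SOD2, the mitochondrial superoxide dismutase, fell by 0.88 (adjusted p = 7.91e-09), with an interaction of 0.87 (adjusted p = 5.76e-06). In ESR2 cells with estradiol 8 rose and 0 fell in hypoxia, where 29.6% of all genes rose and 22.6% fell. PTGS2, the inducible cyclooxygenase, rose by 1.62 (adjusted p = 1.35e-10). Of 14 metabolic and differentiation targets, 6 rose and 0 fell in untreated parental cells, ANGPTL4 by 3.53 and GADD45A, a growth arrest gene, by 0.80. In untreated ESR2 cells 3 rose and 2 fell, and the interaction was negative for 6 and positive for 0, with -0.93 (adjusted p = 4.82e-08) for GADD45A, where 14.3% of all genes were negative and 16.4% positive. With estradiol 7 of these 14 rose and 2 fell in hypoxic ESR2 cells against normoxic ones. In hypoxic ESR2 cells with estradiol against those without it, 35.4% of all genes rose and 21.6% fell. Of the 20 acute-phase targets 9 rose and 0 fell there, and of the 14 metabolic ones 7 rose and 2 fell. The 3′ minus 5′ index differs between these groups, and its bearing on these targets was not tested. ANGPTL4 also stands on the list of hypoxia-inducible factor reporters.

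The 18 genes listed for the amino acid response of ATF4 and CEBPG went both ways. In untreated parental hypoxia 6 rose and 8 fell, where 16.4% of all genes rose and 21.2% fell. In untreated ESR2 hypoxia 3 rose and 4 fell, shares near the 14.4% and 18.2% of all genes. With estradiol 7 rose and 5 fell in hypoxic ESR2 cells, where CEBPG was highest and 29.6% of all genes rose and 22.6% fell. Asparagine synthetase (ASNS) rose by 0.94 (adjusted p = 1.89e-12) and PHGDH, of serine synthesis, by 1.14, while the cystine transporter SLC7A11 fell by 2.00 (adjusted p = 2.78e-11) and SLC7A5, an amino acid transporter, by 0.87. DDIT4, an mTORC1 inhibitor also induced by hypoxia, rose by 4.83 in parental and 3.14 in ESR2 cells without estradiol. ATF4 itself, singled out after its values were seen, fell by 0.38 (adjusted p = 0.000112) in ESR2 cells with estradiol and by 0.34 in untreated parental cells.

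Genes whose 8 group means followed those of each C/EBP gene were ranked by Pearson r among 3844 genes with a span of at least 1. For CEBPA the highest were TEX261 (r = 0.998), the kinase DYRK3, TBC1D2, ZNF557 and the splicing factor SUGP1. The lowest were the sterol transfer protein STARD4 (r = -0.999), MSMO1, an enzyme of cholesterol synthesis, and the receptor EGFR. STARD4 group means ran between 5.53 and 7.46. For CEBPD the highest were the phosphatase DUSP14 (0.987), ELOF1, DDX19B, ZNF200 and ATG101, and the lowest SCAPER, DIAPH2 and FAM117B. For CEBPG the highest were TRIM36 (0.996), NEMP1, SNORA21, LGALS8 and ZNF280B, and the lowest MRPL24 (-0.995), AP3S2 and SHC1. For CEBPZ they were LRRC58 (0.957), BBOF1, MOB4, EIF1AX and RANBP2, with MARCKS, DOT1L and AKAP17A lowest. CEBPB had looser companions, led by SSBP3 (0.953), ABHD6, RHOB, RAB15 and RAB35, with MKLN1, ATRX and SLC35A3 lowest. These correlations rest on 8 points from the same 24 arrays and describe likeness of pattern only.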

How the data were processed

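Total RNA of 24 samples was labelled with biotin and hybridised to Affymetrix 3′ arrays. The deposited values are log2 signals; RMA and affy are named per the submitters' processing notes, with versions not given in the sources used here. RMA quantile-normalizes arrays and compresses changes of dim genes. Of 49386 probe sets 93 are controls, 45253 carry 1 gene symbol in GEO's platform annotation and 1327 several, of which none was used; RefSeq (GRCh38.p14) updated 0 symbols. The brightest probe set stood for each of 18239 genes, with no filter on dim genes. One limma 3.58.1 model (R 4.3.3; lmFit, then eBayes) of group means held all 24 arrays, leaving 16 residual degrees of freedom, with a Benjamini-Hochberg adjustment in each of 17 comparisons (threshold 0.05); the fit was tested on simulated data. Errors are limma's SE, or the SD among the 3 arrays of a group. Outside the 5 genes, CEBPE, DDIT3 and ESR2, up to 4 genes per list and comparison with the smallest p, and the 5 most and 3 least alike genes per C/EBP gene were eligible for naming; values of ATF4, JUN, FOS, NOC2L, NOC3L, SLC7A5 and others in further comparisons were chosen after they were seen. The genes and lists were chosen with earlier results of these data known. Alternatives were other normalization, probe sets, priors, weights and arrays, the replicate block and the 3′ minus 5′ index.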

Additional observations from a re-analysis of the deposited data

Results flagged for a closer look

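The following C/EBP genes had hypoxia or estradiol effects that differed between groups by a limma interaction term with an adjusted p under 0.05; each value is a difference of log2 changes. The effect of hypoxia in ESR2 cells minus that in parental cells, without estradiol, was 2.23 for CEBPA, 1.34 for CEBPD and 0.81 for CEBPB, and -0.57 for CEBPZ. With estradiol the same difference was 2.24 for CEBPA, 1.66 for CEBPD and 1.08 for CEBPG. The effect of estradiol in ESR2 cells minus that in parental cells, averaged over oxygen, was 0.38 for CEBPG. The effect of estradiol in hypoxic minus that in normoxic ESR2 cells was 0.80 for CEBPG, 0.59 for CEBPZ and 0.37 for CEBPD. The last did not pass with the 3′ minus 5′ index in the model (0.22, adjusted p = 0.39) or without any one of 7 of the 12 arrays of ESR2 cells. Dixon's test for a single outlying value was not run, since groups hold 3 arrays.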

How the results depend on the processing

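The falls of CEBPA and CEBPD in hypoxic parental cells and their interactions with ESR2 kept sign and call under every setting run on their main probe sets. CEBPA, CEBPB and CEBPZ have 1 probe set each, so that no other set could be compared for them. Without 1 array at a time the CEBPA change without estradiol ran from -2.30 to -1.73 and its interaction from 1.88 to 2.44. Averaging probe sets turned CEBPG to -0.18 and -0.16 in parental hypoxia without and with estradiol, to 0.0060 in ESR2 hypoxia without estradiol, and to -0.22, -0.034 and -0.19 for ESR2 against parental cells in untreated normoxia, untreated hypoxia and normoxia with estradiol; its interaction without estradiol was 0.19. The dimmer CEBPG set gave -0.38, -0.53 and -0.43 for hypoxia, 0.086 in ESR2 cells with estradiol, and -0.51, -0.36 and -0.41 between cells. The dimmest CEBPD sets gave -0.22 and -0.40 in untreated parental hypoxia, 0.34 and 0.14 in ESR2 hypoxia with estradiol, interactions of 0.019 and 0.16, and -0.18 on one set for ESR2 against parental cells in untreated hypoxia. With the 3′ minus 5′ index as a covariate CEBPA gave 0.45 and 0.028 in ESR2 hypoxia without and with estradiol and -0.29 for estradiol in hypoxic ESR2 cells, CEBPB 0.45 in untreated ESR2 hypoxia, and CEBPZ an interaction of 0.54 with estradiol. The slope on this index rests largely on replicate 2 of untreated normoxic parental cells. CEBPB in untreated ESR2 hypoxia passed at 0.29 without the dimmest genes, with a trended robust prior, in the compared groups alone or without hypoxic ESR2 arrays with estradiol, and at 0.28 with array weights. The CEBPZ interaction with estradiol passed at 0.35 with the trended prior or the compared groups alone, at 0.34 with weights, and ran from 0.29 to 0.40 without 1 array. CEBPZ in untreated parental hypoxia was -0.16 with weights and ran from -0.24 to 0.044, and the untreated CEBPG interaction was 0.32 with weights and ran from 0.16 to 0.31. CEBPG in untreated parental hypoxia was 0.20 after a second quantile normalization, and CEBPB in parental hypoxia with estradiol -0.14 in the compared groups alone. CEBPB in untreated parental hypoxia was -0.29 with weights. Of the 5 genes, the estradiol by ESR2 interaction called 1, but 2 after quantile normalization or with the index, 3 with weights, and 1 to 2 without 1 array. Untreated ESR2 hypoxia called 2, but 1 with mean probe sets and 4 with the index. ESR2 against parental cells called 1 in normoxia with estradiol, but 2 with mean probe sets, weights, the compared groups or the index, and 0 to 1 without 1 array; in untreated normoxia it called 3, but 0 in the compared groups alone. Estradiol in normoxic parental cells called 0, but 1 with weights and 0 to 2 without 1 array. Over all genes it called 2, but 604 with weights. Other shares of all genes called under the alternative settings are not given here. The counts of the 5 genes therefore show only that calls depend on the setting. The cause of these shifts was not tested. Correlations of the deviations of same-numbered samples from their group means ran from -0.29 to 0.29. With 3 arrays in a group such values cannot show whether the numbers pair samples, and samples were not paired in the main model. With the replicate block 3 of the 5 genes passed in untreated parental hypoxia, as without it, and no call among the 5 changed.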
